A study of Mus musculus with 8 samples.

Results

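The 5 CCN genes Ccn1 to Ccn5, the TEAD cofactors Vgll3, Yap1 and Wwtr1, the transcription factor gene Tead1 and the target gene Ankrd1 were followed through bulk RNA sequencing of mouse sarcoma cells. The 10 genes were chosen by name with their measured levels in these libraries already known, so their levels and fold changes are given as a description. They are 10 of 35498 genes with a transcript in the tables, and 10 of 10 passed the filter on low counts that left 16309 genes for testing. The study asked how Mif made by the tumour acts on pathways inside the tumour cells, where Mif is the gene of the cytokine macrophage migration inhibitory factor. Per the labels, all groups were made from C57BL/6 mesenchymal stem cells transformed by p53 knockout and Ccne1 overexpression, which had first formed tumours in primary recipients. The sgMif group carried Cas9 and a guide RNA against Mif (Mif-KO), and the sgSCR group carried Cas9 and a non-targeting guide (Mif-WT). A further group labelled shMif carried a short hairpin RNA against Mif (Mif-KD), and shSCR carried a control hairpin (Mif-WT). The design text gives the hairpin groups Cas9 as well, while the growth protocol names Cas9 for the guide groups alone. Cells grew under the skin of secondary recipients on polyurethane scaffolds until tumours measured about 1 cm3, and were digested and sorted on a fluorescent marker. The labels do not give the recipients' age or sex, the identity of the marker or the number of clones in each line. Each of the 4 groups held 2 libraries. The labels do not tie these to separate mice, so a p-value covers the spread from library to library, which may be technical.

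YAP (from Yap1) and TAZ (from Wwtr1) are transcriptional coactivators that the kinases of the Hippo pathway hold out of the nucleus by phosphorylation. In the nucleus they bind TEAD factors such as TEAD1, which carry the DNA-binding domain, and VGLL3 is another protein that binds TEAD factors through a vestigial-like motif. Ccn1, Ccn2 and Ankrd1 are much-used target genes of this complex, and the CCN proteins are secreted into the matrix, where they bind integrins and other receptors of mesenchymal cells.

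Promoters were read for GGAATG, the core of the element that TEAD factors bind. RefSeq windows of build GRCm38.p6 were matched for 5 genes, namely Ccn1, Vgll3, Yap1, Wwtr1 with 2 start sites, and Ankrd1. The promoters of Ccn2, Ccn3, Ccn4, Ccn5 and Tead1 were not read here. GGAATG or its reverse complement CATTCC stood within the 250 bases before the start in 6 of 6 windows, against 12.6% of 32851 such windows of all genes. The AP-1 motif TGANTCA, searched on both strands, stood in 0 of 6 windows, against 6.75% of all windows. The first letter of the match lay 63 bases before the start in Vgll3, 103 in Ccn1, 141 in Yap1, and 136 and 170 in the overlapping windows of Wwtr1. These 2 matches of Wwtr1 are the same site, so the 6 windows are those of 5 genes and are not all separate. Ankrd1 had 2 matches, 210 and 123 bases before its RefSeq start, in a window that lies wholly inside the longer annotated transcript Ankrd1-205. The 4 windows below are those outside the annotated transcripts of their genes, and capitals mark the motif. They lie at chr16:65814939-65815188 on the plus strand for Vgll3, and on the minus strand at chr3:145649986-145650235 for Ccn1, chr9:8004597-8004846 for Yap1 and chr3:57575911-57576160 for Wwtr1.
Vgll3: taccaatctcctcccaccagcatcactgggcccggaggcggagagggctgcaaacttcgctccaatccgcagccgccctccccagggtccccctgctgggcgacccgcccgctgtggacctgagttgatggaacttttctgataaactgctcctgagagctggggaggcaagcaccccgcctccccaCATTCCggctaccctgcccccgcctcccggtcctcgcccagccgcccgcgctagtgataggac
Ccn1: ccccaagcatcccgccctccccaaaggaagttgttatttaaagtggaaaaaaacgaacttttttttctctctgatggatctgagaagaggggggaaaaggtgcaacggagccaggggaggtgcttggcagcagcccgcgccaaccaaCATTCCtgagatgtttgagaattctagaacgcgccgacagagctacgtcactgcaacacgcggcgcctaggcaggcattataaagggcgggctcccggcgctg
Yap1: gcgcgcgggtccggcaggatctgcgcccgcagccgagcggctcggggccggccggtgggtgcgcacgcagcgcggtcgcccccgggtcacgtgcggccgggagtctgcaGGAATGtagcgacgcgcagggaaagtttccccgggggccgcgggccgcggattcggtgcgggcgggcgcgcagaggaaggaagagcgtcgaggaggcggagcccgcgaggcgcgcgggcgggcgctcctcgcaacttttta
Wwtr1: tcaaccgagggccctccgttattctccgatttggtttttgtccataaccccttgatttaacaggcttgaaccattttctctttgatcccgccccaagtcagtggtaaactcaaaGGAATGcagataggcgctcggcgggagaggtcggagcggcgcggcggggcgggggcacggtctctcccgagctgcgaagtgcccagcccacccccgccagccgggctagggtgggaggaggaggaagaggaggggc
The match is on the reverse strand (CATTCC) in Vgll3 and Ccn1 and on the gene's own strand in Yap1, Wwtr1 and Ankrd1. A match of letters is a description and was not tested for binding here.

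Library totals ran between 19042235 and 51819308 estimated reads. Mif was at 221 and 222 CPM (counts-per-million units after scaling) in sgMif, against 377 and 455 CPM in sgSCR, and at 277 and 222 CPM in the libraries labelled shMif, against 170 and 375 CPM in shSCR. Mif thus overlapped between shMif and shSCR (log2 fold change -0.13 ± 0.32, standard error, n = 2 libraries each), so the label shMif is not borne out by the RNA of its target, and every direction drawn from these libraries goes by the label alone. In sgMif against sgSCR the log2 fold change of Mif was -0.91 ± 0.32 with an edgeR adjusted p of 0.215. Reads on 1406 olfactory receptor genes, which were not part of any group's label, stood above 1000 CPM in 5 libraries (1330 to 2544 CPM) and below it in sgMif 2, shMif 2 and shSCR 2 (379.5 to 552.9 CPM). Genes from lists of cell type markers were read in every library, and whether tumour cells or other cells held this RNA was not tested. Summed over 10 macrophage markers, levels were 90.7 to 115 CPM in sgMif with Cd163 at 0, against 168 to 407 CPM in sgSCR, and 174 to 334 CPM in shMif, against 179 to 213 CPM in shSCR. For 8 skin fibroblast markers the sums were 372 to 516 CPM in sgMif, against 1328 to 1623 CPM in sgSCR, and 967 to 978 CPM in shMif, against 763 to 933 CPM in shSCR. Pericyte and smooth muscle sums were 353 to 478 CPM in sgMif, against 250 to 280 CPM in sgSCR, and 381 to 407 CPM in shMif, against 397 to 453 CPM in shSCR. Endothelial sums were 52.9 to 195 CPM in sgMif, against 292 to 299 CPM in sgSCR, and 79.5 to 188 CPM in shMif, against 62.8 to 245 CPM in shSCR. The median log2 fold change of the 8 endothelial markers was 0.67 in sgMif against sgSCR, opposite in direction to the sums. It was -0.19 in shMif against shSCR and -0.24 in shSCR against sgSCR, and 0 of 8 were called in these contrasts. The 4 tested genes of a list of 6 B cell markers summed to 3.25 to 10 CPM in sgMif, against 19.4 to 62.7 CPM in sgSCR, and to 6.34 to 43.7 CPM in shMif, against 8.19 to 13.4 CPM in shSCR. Their median log2 fold change was -2.08 in sgMif against sgSCR, 1.59 in shMif against shSCR and -2.26 in shSCR against sgSCR, and 0 of 4 were called. Over the 8 libraries striated muscle sums were 15.3 to 37.3 CPM and keratinocyte sums 1.69 to 4.02 CPM. Both libraries were at 0 for Krt1 and Krt5 in sgMif, for Krt1, Krt5 and Myl2 in sgSCR and for Krt5 in shSCR. By edgeR, 2 of 10 macrophage and 1 of 8 skin fibroblast markers fell in sgMif against sgSCR, beside 0.987% of all genes called in either direction. In shSCR against sgSCR 1 macrophage and 3 skin fibroblast markers fell, beside 4.02% of all genes called, 1.79% lower. In shMif against shSCR 0 were called, beside 0.0184% of all genes. The part of any of these cells in the results below was not tested.

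Per unit of transcript length, Ccn1 was the highest of the 10 genes in every library, at 626 to 954 TPM (transcripts-per-million units), and made up 84 to 94.1% of the summed TPM of the 5 CCN genes. The level order by median over the 8 libraries went on with Ankrd1 at 125 TPM, Wwtr1 at 93.3 TPM, Yap1 at 53.9 TPM, Ccn4 at 44 TPM and Tead1 at 42.9 TPM. Ccn5 at 19 TPM, Vgll3 at 13.6 TPM and Ccn2 at 13.3 TPM followed. Ccn3 was lowest, at a median of 0.734 TPM with 29 to 123 reads in a library. Their spread across libraries ran differently from their level. The highest over the lowest library was 26-fold in CPM for Ccn5, 9.23-fold for Vgll3, 4.97-fold for Ccn3 and 4.26-fold for Ccn2, and 1.43- to 1.75-fold for the other 6 genes.

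**Figure D1:**
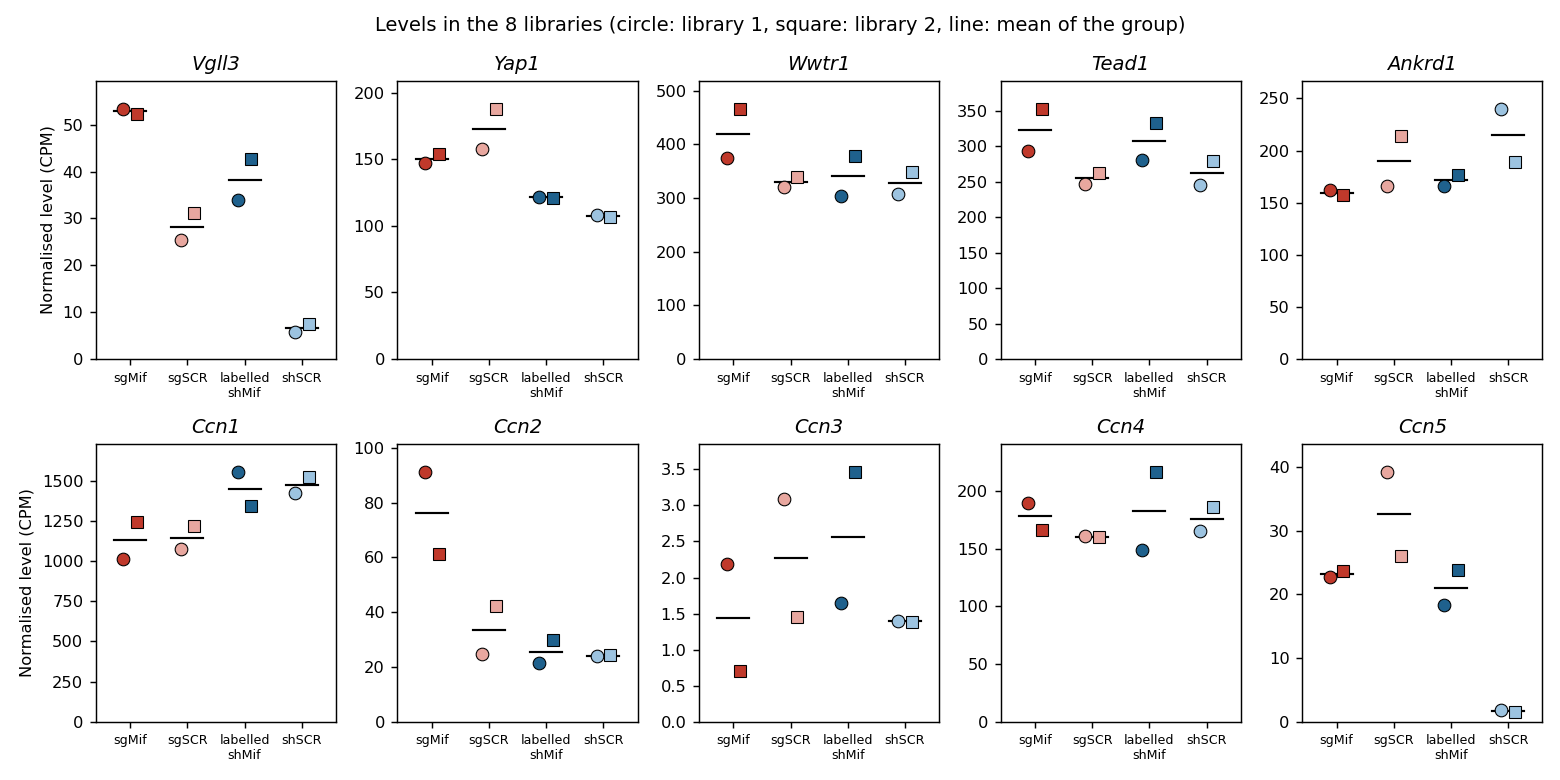
Normalised level in CPM of the 10 genes (vertical axes, each from 0) in the 2 libraries of sgMif, sgSCR, labelled shMif and shSCR (horizontal axis), with circles for library 1, squares for library 2 and lines for the group means. Ccn5 and Vgll3 were lowest in both shSCR libraries, at 1.51 to 1.82 and 5.78 to 7.49 CPM, and Ccn2 was highest in both sgMif libraries, at 61.3 and 91.4 CPM.

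Among the cofactors, Vgll3 (ENSMUSG00000091243, chromosome 16, 65815257 to 65866368 in GENCODE M21 on mm10) varied most. It was at 53.4 and 52.3 CPM in sgMif, against 25.4 and 31.1 CPM in sgSCR. The libraries labelled shMif held 34 and 42.6 CPM of it, against 5.78 and 7.49 CPM in shSCR. All 4 groups were separate, in the order sgMif, shMif, sgSCR and shSCR, and no neighbours in this order overlapped. The share of all genes whose groups did not overlap was not counted, so separate groups of 2 libraries are a description, here and below. The log2 fold change was 0.90 ± 0.19 (1.87-fold) in sgMif against sgSCR and 2.53 ± 0.20 (5.77-fold) in shMif against shSCR, and shSCR was 4.25-fold lower than sgSCR (-2.09 ± 0.20). Each Mif arm thus held more Vgll3 than its own control, and the 2 control groups also stood apart from each other. In bulk RNA, fewer cells that express a gene and less of its RNA per cell cannot be told apart.

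Yap1 (ENSMUSG00000053110, chromosome 9, 7931999 to 8004596) was at 147 and 154 CPM in sgMif, against 158 and 188 CPM in sgSCR, and at 122 and 121 CPM in shMif, against 108 and 107 CPM in shSCR. Its groups did not overlap, and the order was sgSCR, sgMif, shMif and shSCR. The log2 fold change was -0.20 ± 0.13 in sgMif against sgSCR, 0.17 ± 0.13 in shMif against shSCR and -0.68 ± 0.13 (1.6-fold lower) in shSCR against sgSCR. Both guide groups therefore held more Yap1 than both hairpin groups.

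Wwtr1, the gene of TAZ, was at 374 and 466 CPM in sgMif, against 320 and 339 CPM in sgSCR, and at 304 and 379 CPM in shMif, against 307 and 349 CPM in shSCR. The sgMif libraries were above both sgSCR libraries (0.35 ± 0.17), and the hairpin groups overlapped (0.06 ± 0.17). Tead1 was at 294 and 353 CPM in sgMif, against 247 and 263 CPM in sgSCR, and at 281 and 333 CPM in shMif, against 246 and 279 CPM in shSCR. Both Mif arms lay above their controls in CPM, by 0.34 ± 0.15 and 0.23 ± 0.15 on the log2 scale, but in TPM the hairpin groups of Tead1 overlapped.

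Ankrd1, which encodes the cardiac ankyrin repeat protein CARP, was at 162 and 157 CPM in sgMif, against 166 and 214 CPM in sgSCR, and at 166 and 177 CPM in shMif, against 240 and 189 CPM in shSCR. It was the reverse of Vgll3 and Tead1 in sign, lower in each Mif arm than in its control without overlap (log2 fold changes of -0.26 ± 0.17 and -0.32 ± 0.17). The differences were within 2 standard errors of 0.

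Of the CCN genes, Ccn2 (ENSMUSG00000019997, chromosome 10, 24595442 to 24598683), which encodes connective tissue growth factor, was at 91.4 and 61.3 CPM in sgMif, against 24.6 and 42.3 CPM in sgSCR. In the hairpin groups it was at 21.5 and 29.8 CPM in shMif, against 23.9 and 24.3 CPM in shSCR. Only the sgMif libraries stood above the rest, and the other 3 groups overlapped with their neighbours in the order of means. The log2 fold change was 1.19 ± 0.30 (2.29-fold) in sgMif against sgSCR and 0.09 ± 0.30 in shMif against shSCR. With single libraries left out in turn, the value in sgMif against sgSCR ran between 0.85 and 1.65.

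Ccn1, a ligand of integrins in the matrix and the most abundant member, was at 1012 and 1243 CPM in sgMif, against 1076 and 1215 CPM in sgSCR, and at 1556 and 1344 CPM in shMif, against 1420 and 1520 CPM in shSCR. Each Mif arm overlapped with its control, with log2 fold changes of -0.02 ± 0.16 in both comparisons. Both hairpin groups were above both guide groups, and shSCR against sgSCR was 0.36 ± 0.16. Ccn1 and Ccn2, both known as YAP-TEAD targets, thus did not share an order of groups.

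Ccn5 (ENSMUSG00000027656, chromosome 2, 163820861 to 163833146), whose protein lacks the C-terminal cystine knot domain of the other CCN proteins, was at 22.8 and 23.6 CPM in sgMif, against 39.3 and 26 CPM in sgSCR. It was at 18.3 and 23.8 CPM in shMif, against 1.82 and 1.51 CPM in shSCR, where 70 and 75 reads lay behind the values. The shSCR libraries alone were low, and sgMif and shMif overlapped. The log2 fold change was -0.49 ± 0.24 in sgMif against sgSCR, 3.66 ± 0.27 (12.7-fold) in shMif against shSCR, and -4.30 ± 0.28 (19.6-fold lower) in shSCR against sgSCR. The effects in the 2 systems differed by -4.16 ± 0.36 on the log2 scale. The summed skin fibroblast markers, given above, also differed between these groups. Their median log2 fold change was -1.23 in sgMif against sgSCR, 0.89 in shMif against shSCR and -1.06 in shSCR against sgSCR, and their part in the Ccn5 values was not tested.

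Ccn4, a WNT-inducible member, was at 190 and 166 CPM in sgMif, against 161 and 160 CPM in sgSCR, and at 149 and 217 CPM in shMif, against 165 and 186 CPM in shSCR. Its log2 fold changes were 0.15 ± 0.19 and 0.06 ± 0.19, and the sgMif and sgSCR libraries did not overlap in CPM but did in TPM. Ccn3, long known as Nov, was at 2.19 and 0.699 CPM in sgMif, against 3.09 and 1.45 CPM in sgSCR, and at 1.65 and 3.47 CPM in shMif, against 1.4 and 1.39 CPM in shSCR. The 2 libraries of sgMif, sgSCR and shMif each differed more than the group means did. The shMif libraries were above both shSCR libraries, and with standard errors of 0.69 its changes were not resolved at this depth.

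**Figure D2:**
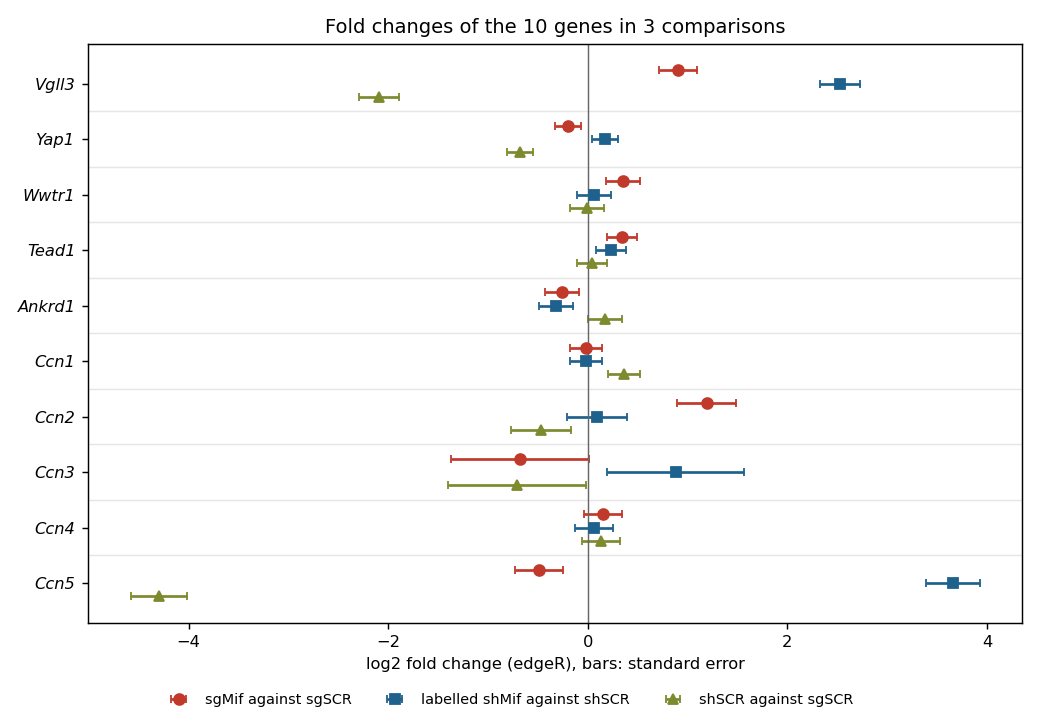
The log2 fold change from edgeR (horizontal axis) of the 10 genes (rows) in sgMif against sgSCR (circles), labelled shMif against shSCR (squares) and shSCR against sgSCR (triangles), with bars for the standard error. Ccn5 and Vgll3 lie far right of 0 in shMif against shSCR, at 3.66 and 2.53, and far left in shSCR against sgSCR, at -4.30 and -2.09.

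The plot of fold changes shows that shSCR libraries enter the largest ones on either side of 0. In edgeR's quasi-likelihood fit with Benjamini-Hochberg adjustment over 16309 genes, 0 of 10 genes passed 0.05 in sgMif against sgSCR, where 0.987% of all genes did. In that contrast 2 of 10 were at an unadjusted p under 0.05, as were 16.6% of all genes, and DESeq2 called 2 (Ccn2 and Vgll3), beside 6.07% of all genes. In shMif against shSCR 2 of 10 passed, Ccn5 and Vgll3, both higher, where 0.0184% of all genes passed, which is 3 genes, all of them higher. For the difference of the 2 effects 1 of 10 passed, Ccn5, where 0.092% of all genes passed and 0.0858% were lower. In shSCR against sgSCR 3 of 10 passed, Ccn5, Vgll3 and Yap1, all lower, where 4.02% of all genes passed, 1.79% lower and 2.23% higher. With the replicate number as a block, 1 of 10 was called in sgMif against sgSCR (Vgll3), where 459 genes were called in all instead of 161. The block gave 2 of 10 for the difference (Ccn5 and Vgll3), where 68 genes were called in all instead of 15, and left the members called in the other 2 contrasts as they were, with 10 genes in all instead of 3 in shMif against shSCR and 994 instead of 655 in shSCR against sgSCR. These counts come from the contrasts known when the genes were chosen, and nothing is read from them. The median log2 fold change of the 10 genes was 0.06, 0.13, 0.03 and -0.24 in these 4 contrasts, beside -0.01, 0.03, -0.04 and -0.04 over all genes tested. shMif against shSCR and shSCR against sgSCR share the shSCR libraries, and sgMif against sgSCR and shSCR against sgSCR share the sgSCR libraries.

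Within the 2 classes of olfactory receptor reads, shMif over shSCR was 10.1-fold for Ccn5 in the high class and 15.7-fold in the low class, and 5.88-fold in the high and 5.69-fold in the low class for Vgll3, with 1 library on each side. sgMif 1 over the mean of sgSCR, all in the high class, was 2.73-fold for Ccn2, 1.89-fold for Vgll3, 1.19-fold for Ccn4, 1.15-fold for Tead1 and 1.14-fold for Wwtr1. The same ratio was below 1 for Ccn3 (0.965), Ccn1 (0.883), Ankrd1 (0.851), Yap1 (0.848) and Ccn5 (0.699). The low class held no sgSCR library. Leaving out shMif 2 ended both calls in shMif against shSCR, with 0 genes called in all, while the log2 fold changes stayed between 3.45 and 3.84 for Ccn5 and between 2.35 and 2.73 for Vgll3 over all 8 single libraries left out. The call of Ccn5 for the difference of effects was kept without either shSCR library and lost without any 1 of the other 6. In sgMif against sgSCR, Vgll3 was called without shSCR 1 and without shSCR 2. The call of Yap1 in shSCR against sgSCR was kept without shSCR 2 and lost without any other single library and with counts scaled by transcript length, at -0.80 to -0.51.

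Genes whose log2 CPM followed the 3 genes with the widest range of group means, among those of the 10 whose log2 CPM averaged 1 or more, over the 8 libraries were looked for among 9181 annotated protein-coding genes. For Ccn5 these were Has2, a hyaluronan synthase (Pearson r = 0.968), Olfml3, a secreted olfactomedin-domain protein (0.949), and Ccl2, a chemokine that draws monocytes (0.949). Has2 was at 18.6 and 24.7 CPM in sgMif, against 35.2 and 26.7 CPM in sgSCR, and at 15.7 and 24.4 CPM in shMif, against 7.6 and 6.18 CPM in shSCR. Vgll3 was followed by Islr (0.967), a secreted leucine-rich repeat protein of mesenchymal cells, Fam198b (0.955) and Cenpm (0.951), a centromere protein. Islr was at 33.6 and 45.7 CPM in sgMif, against 18.3 and 17.1 CPM in sgSCR, and at 17 and 21.3 CPM in shMif, against 4.51 and 6.09 CPM in shSCR. Genes closest to Ccn2 were Eif2b5 (0.958), Cdca5 (0.958) and Itpa (0.955), whose levels spanned less than those of Ccn2, such as 59.9 to 95.1 CPM for Eif2b5. Among the 10 genes themselves r was 0.91 between Vgll3 and Ccn5, 0.87 between Tead1 and Wwtr1 and -0.73 between Ankrd1 and Vgll3. All these values are descriptions over libraries that share groups and differ in depth.

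Transcripts were also tested relative to the other transcripts of their gene. Of 47552 transcripts tested with edgeR, 33 belonged to 8 of the 10 genes, and 0 of the 33 passed 0.05 in sgMif against sgSCR (0.103% of all transcripts did) or in shMif against shSCR (0.0505%), with 1 each at an unadjusted p under 0.05. These counts do not show equal use, since the 2 libraries of a group often differed widely. Yap1-201, the longer of the 2 main coding transcripts, took 23.9 and 28.4% of the gene's reads in sgMif, against 0 and 42.8% in sgSCR. It took 20.5 and 37.3% in shMif, against 26.7 and 40.5% in shSCR, and Yap1-202, with 8 exons, took 45.9 to 77.7% over the 8 libraries. Tead1-201 held 69.6 to 90.9% of Tead1 reads and Tead1-202 held 2.19 to 27.3%, with the lowest Tead1-202 share in shSCR 1. Ankrd1 was split between Ankrd1-205 at 26.5 to 59%, Ankrd1-201 at 25.2 to 47.7% and Ankrd1-203, annotated as subject to nonsense-mediated decay, at 0 to 26.8%. Vgll3-201 made up 63.7 to 80.9% of Vgll3 reads, but as the longest transcript it held 25 to 44.7% of the gene's TPM, where Vgll3-202 held 0 to 66% and Vgll3-203 held 2.83 to 56.1%. In shSCR 1, where Vgll3 had 223 reads, Vgll3-202 took 0% of reads and Vgll3-203 took 24.9%, against 14.4 to 28.6% and 1.47 to 12.3% in the other 7 libraries. Ccn5-201 made up 79.7 to 91.2% of Ccn5 reads and 64.8 to 83% of its TPM. Ccn1 and Ccn3 have 1 annotated transcript each.

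**Figure D3:**
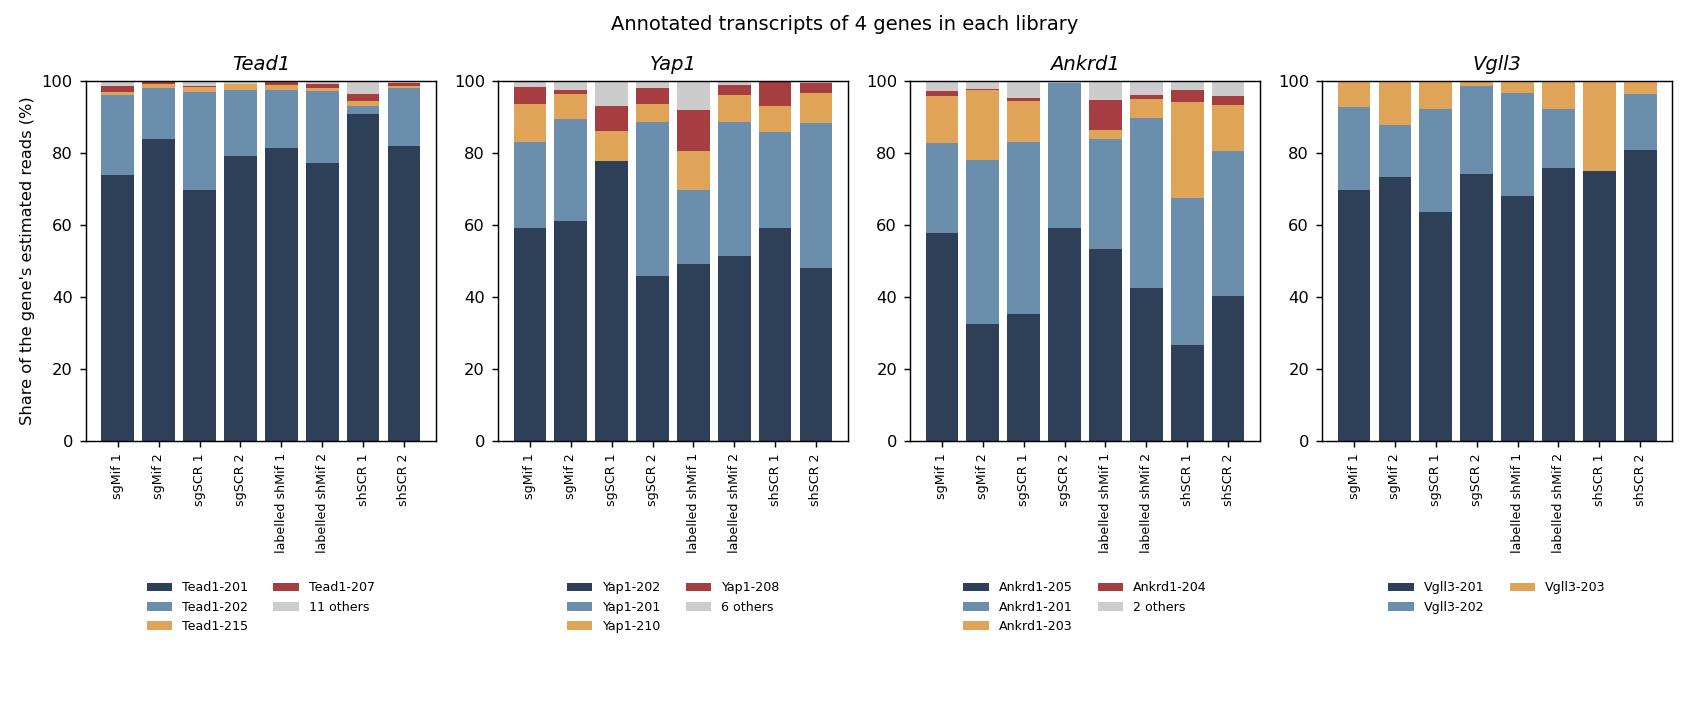
Share in percent of each gene's estimated reads (vertical axis) on its annotated transcripts in the 8 libraries (horizontal axis) for Tead1, Yap1, Ankrd1 and Vgll3, with colours for transcripts by mean share. Yap1-201 was at 0% in sgSCR 1 and 42.8% in sgSCR 2, which is wider than any difference between groups.

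Around the 10 genes, 69 other genes of the pathway were counted in 5 lists, of which 65 could be tested, and 0 passed in sgMif against sgSCR, in shMif against shSCR or for the difference of effects by edgeR. At an unadjusted p under 0.05 there were 17, 12 and 15 of 65, beside 16.6, 9.26 and 15.8% of all genes. DESeq2 called 6, 3 and 5 of 65, beside 6.07, 1.12 and 4.01% of all genes. In shSCR against sgSCR 6 of 65 passed by edgeR, 3 higher and 3 lower, beside 4.02% of all genes, and 12 by DESeq2, beside 11.9%. At an unadjusted edgeR p under 0.05 there were 25 of 65 in that contrast, beside 22.9% of all genes. The replicate block gave 1 of 65 in sgMif against sgSCR, 1 for the difference and 7 in shSCR against sgSCR, beside 2.81, 0.417 and 6.09% of all genes. Of the other TEAD factors, Tead2 fell to 48.8 and 73.4 CPM in shSCR, against 115 and 127 CPM in sgSCR (log2 fold change -0.99 ± 0.20, edgeR adjusted p 0.039). Tead3 fell to 20.4 and 25.2 CPM in shSCR, against 36.1 and 45.5 CPM in sgSCR (-0.84 ± 0.17, edgeR adjusted p 0.0409). The 4 tested genes of this list all had negative values in that contrast, with a median of -0.66. In sgMif against sgSCR, Tead3 was at 30.4 and 30.5 CPM in sgMif (-0.42 ± 0.17, edgeR adjusted p 0.28) and Tead4 at 5.29 and 7.57 CPM in sgMif, against 8.83 and 12.4 CPM in sgSCR (-0.72 ± 0.30, edgeR adjusted p 0.283). In shMif against shSCR, Tead3 and Tead2 were at 0.54 ± 0.17 and 0.41 ± 0.20 on the log2 scale (edgeR adjusted p 0.476 and 0.569). Ccn6, the sixth CCN gene, had 0 reads, and Vgll1 and Vgll2 had 2 and 3 reads in all.

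Of 19 other YAP-TEAD target genes 1 passed in shSCR against sgSCR, where 4.02% of all genes passed, 1.79% lower and 2.23% higher. Nt5e, which encodes the ectoenzyme CD73, rose to 222 and 227 CPM in shSCR, against 99.2 and 111 CPM in sgSCR (1.10 ± 0.16, edgeR adjusted p 0.0167). It was at 75.3 and 57.4 CPM in sgMif (-0.66 ± 0.16, edgeR adjusted p 0.0977) and at 110 and 101 CPM in shMif (-1.09 ± 0.16, edgeR adjusted p 0.155), lower than its control in each system without overlap. Tgfb2, a TGF-beta ligand gene, was at 98.1 and 84.8 CPM in sgMif, against 112 and 219 CPM in sgSCR (-0.85 ± 0.30, edgeR adjusted p 0.21). F3, the gene of tissue factor, was at 92.9 and 92.4 CPM in shMif, against 272 and 169 CPM in shSCR (-1.25 ± 0.25, edgeR adjusted p 0.352). The median of the 19 in shSCR against sgSCR was -0.11. Of 11 CCN receptors tested 2 passed in shSCR against sgSCR, beside the same 4.02% of all genes, and both rose. Itgb1, the common integrin beta 1 subunit, was at 1918 and 1623 CPM in shSCR, against 926 and 995 CPM in sgSCR (0.88 ± 0.18, edgeR adjusted p 0.0377), and Itga6, an integrin alpha subunit, at 152 and 156 CPM in shSCR, against 101 and 83.9 CPM in sgSCR (0.73 ± 0.14, edgeR adjusted p 0.0354). In sgMif the integrin alpha V gene Itgav was at 398 and 454 CPM, against 274 and 307 CPM in sgSCR (0.55 ± 0.14, edgeR adjusted p 0.113), and Itga6 at 119 and 134 CPM (0.45 ± 0.14, edgeR adjusted p 0.17). In shMif against shSCR the smallest p-values of the receptors were those of the scavenger receptor gene Lrp1 (0.47 ± 0.14, edgeR adjusted p 0.462) and Itgb3 (-0.68 ± 0.28, edgeR adjusted p 0.527).

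Of 22 Hippo kinases, scaffolds and upstream regulators 0 passed in any contrast, with 3 in sgMif against sgSCR, 3 in shMif against shSCR and 6 in shSCR against sgSCR at an unadjusted p under 0.05, beside 16.6, 9.26 and 22.9% of all genes. The protocadherin gene Fat4 had opposite signs in the 2 systems, -0.81 ± 0.24 in sgMif against sgSCR and 0.90 ± 0.24 in shMif against shSCR (edgeR adjusted p 0.152 and 0.439). Nf2, the gene of the scaffold merlin, was at 86.9 and 80.1 CPM in sgMif, against 61.5 and 68.3 CPM in sgSCR (0.36 ± 0.13, edgeR adjusted p 0.22). Map4k4, a kinase upstream of LATS, was at 360 and 364 CPM in shMif, against 498 and 424 CPM in shSCR (-0.35 ± 0.13, edgeR adjusted p 0.507). Immediate-early genes, which Ccn1 and Ccn2 also resemble in their quick response to serum, included 1 of 12 that passed in shSCR against sgSCR. The share of all genes that passed in that contrast was 4.02%. Egr1 fell to 63.3 and 112 CPM in shSCR, against 493 and 485 CPM in sgSCR (-2.48 ± 0.26, edgeR adjusted p 0.00471). In shSCR against sgSCR 11 of the 12 had a negative value, with a median of -0.53, while Ccn1 was at 0.36. That median was -0.29, with 10 of 12 negative, without shSCR 1, and -0.92 without shSCR 2. In sgMif against sgSCR 11 of the 12 were also negative, with a median of -0.26. This rested in part on single libraries. Without sgMif 1, 7 of 12 were negative (median -0.14), and without sgSCR 2, 8 of 12 (median -0.15). Without sgMif 2 or sgSCR 1, 11 of 12 stayed negative, with medians of -0.43 and -0.36. In shMif against shSCR 10 were positive, with a median of 0.59, which was 0.22 without shSCR 1. For the difference of effects 12 of 12 were negative, with a median of -0.79. Counts of the pair of shSCR libraries gave a chi-square of 120 over its degrees of freedom, against 24 to 43.2 for the pairs of the other groups, and this measure also grows with depth. Junb, named after its values were seen, was at 228 CPM in shSCR 1 and 1209 CPM in shSCR 2, against 1637 and 1874 CPM in sgSCR. Egr1 was at 215 and 196 CPM in sgMif (-1.25 ± 0.25 against sgSCR, edgeR adjusted p 0.0643) and at 224 and 182 CPM in shMif (1.21 ± 0.25 against shSCR, edgeR adjusted p 0.352). Ier3 was at -1.03 ± 0.25 in sgMif against sgSCR (edgeR adjusted p 0.102) and Btg2 at 0.75 ± 0.22 in shMif against shSCR (edgeR adjusted p 0.456).

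**Figure D4:**
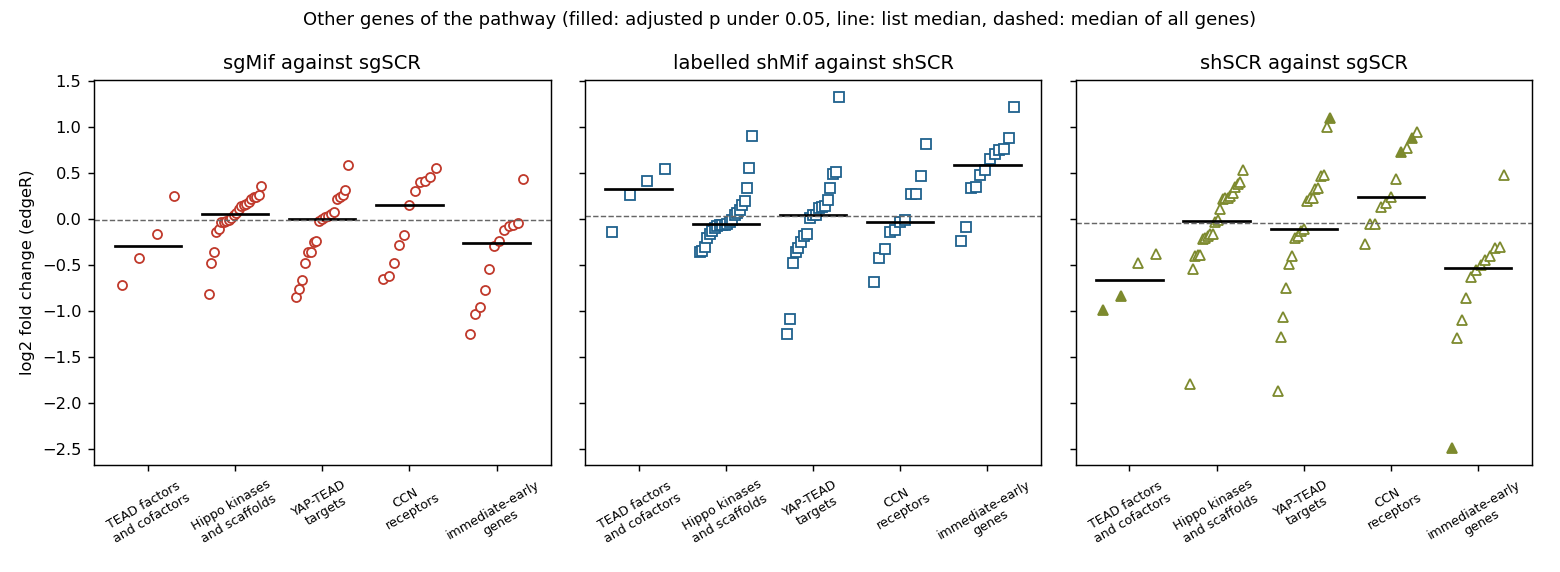
The log2 fold change from edgeR (vertical axis) of the tested genes of 5 pathway lists (horizontal axis) in sgMif against sgSCR, labelled shMif against shSCR and shSCR against sgSCR (panels), with filled symbols for an adjusted p under 0.05, solid lines for list medians and a dashed line for the median of all genes. Filled symbols stand in the panel of shSCR against sgSCR, for 6 genes.

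As the plot of the pathway lists shows, the called genes all lay in the contrast between the 2 control groups. With single libraries left out, their number rose and fell with the share of all genes called, and was highest without shSCR 2. In shMif against shSCR, pathway genes were called only without shSCR 2, where more of all genes were called as well. Such fits leave 1 library in a group, so nothing is read from these counts. The 2 control groups differ in system as well as in the lines and tumours sampled, which cannot be told apart here.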

How the data were processed

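Total RNA of sorted tumour cells was sequenced in 8 libraries. Trimmomatic, Salmon and build mm10 are named in the submitters' processing notes, without versions, and the labels name no library kit or strandedness. Per the file headers, the deposited tables hold Salmon's estimated counts and TPM values for 116546 transcripts. These were joined to genes of GENCODE M21, with 115785 transcripts matched with and 115977 without their version, and summed for 35498 genes. The 569 unmatched transcripts, with 0.101 to 0.205% of reads, were left out. Estimated counts were rounded, filtered with filterByExpr (minimum count 10, minimum total 15), scaled by TMM and tested with the quasi-likelihood test of edgeR 4.0.16 (legacy deviances) in R 4.3.3, with 4 group means fitted together, which left 4 residual degrees of freedom. P-values were adjusted by the Benjamini-Hochberg method over all genes tested, at 0.05. Standard errors are the log2 fold change over the square root of F. CPM values are counts-per-million units computed here after TMM. Transcript use was tested with diffSpliceDGE. Alternatives included DESeq2 1.42.0. Python 3.11.15 with numpy 2.4.6, pandas 2.3.3 and matplotlib 3.10.9 made the tables and figures.

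The 10 genes, the pathway lists and the markers were chosen with earlier results of these data known. Named genes of a list are those past the threshold, at most 4, or else those with the smallest p. Genes like Ccn5, Vgll3 and Ccn2 are the 3 with the highest Pearson r. The labels do not tie libraries of the same replicate number, but their deviations from the group means correlated at 0.154 to 0.371 in all 6 pairs of groups, so blocked counts stand beside the others. Reads shared by overlapping or near-identical genes may be split in ways these tables do not show.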

Additional observations from a re-analysis of the deposited data

Results flagged for a closer look

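The effects in the guide and hairpin systems differed for Ccn5, by -4.16 on the log2 scale. Ccn5 was at 22.8 and 23.6 CPM in sgMif, against 39.3 and 26 CPM in sgSCR, and at 18.3 and 23.8 CPM in the libraries labelled shMif, against 1.82 and 1.51 CPM in shSCR. The difference passed edgeR's threshold in a contrast that was known when the gene was chosen, so it is given as a description. It was no longer called with counts scaled by transcript length or without any 1 of the 6 libraries sgMif 1 and 2, sgSCR 1 and 2, and shMif 1 and 2, and its value stayed between -4.37 and -3.79 over all alternatives.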

How the results depend on the processing

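No called value reversed under any alternative run. Of the log2 fold changes of the 10 genes under alternatives, 596 moved by less than the pooled SD between libraries and 34 by more. Among the 10 genes, the number called in sgMif against sgSCR was 0, against 2 with DESeq2, 2 with no filter on low counts, 1 with both shSCR libraries left out and 0 to 1 with single libraries left out. In shMif against shSCR it was 2, against 0 with each system fitted alone, where 0 genes were called in all, and 0 to 2 with single libraries left out. For the difference of effects it was 1, against 2 with DESeq2 and 3 with no filter. It was 0 with counts scaled by transcript length, where 0 genes were called in all. In shSCR against sgSCR it was 3, and 2 to 3 with single libraries left out. Of the pathway genes, DESeq2 called 6 in sgMif against sgSCR, 3 in shMif against shSCR, 5 for the difference and 12 in shSCR against sgSCR, beside 990, 182, 654 and 1948 of all 16309 genes. No filter gave 10, 9, 8 and 20, beside 1494, 662, 1306 and 2425 of 24467. Each system fitted alone gave 3 in sgMif against sgSCR, where edgeR's newer bias-adjusted fit and both shSCR libraries left out gave 1 each. Single libraries left out gave 0 to 1, 0 to 8, 0 to 8 and 1 to 21. Transcript use in sgMif against sgSCR gave 0 to 1 called. The bias-adjusted fit and the fit without both shSCR libraries were added after the data were seen.

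With a replicate block 1 of the 10 genes was called in sgMif against sgSCR (Vgll3), 2 for the difference (Ccn5 and Vgll3), and 1 pathway gene in each of these contrasts. It changed no other call of the 10 genes. All genes called in sgMif against sgSCR numbered 161, against 459 with the block, 990 with DESeq2, 1494 with no filter and 18 with counts scaled by transcript length.

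With 2 libraries a group and 29 to 123 reads on Ccn3 in a library, changes of that gene could not be resolved. A library left alone in its group was assumed to vary like the others.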
